A study of Gallus gallus with 2 samples.

Results

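Epithelial nuclei of chicken (Gallus gallus) thymus were split by whether a transcript of TTN, the gene of the giant muscle protein titin, was counted in them. An epithelial nucleus was a barcode with at least 200 detected genes, a sum of 4 or more unique molecular identifiers (UMIs, each standing for 1 captured transcript) over FOXN1, ABCA12, ATP10B, BMPR1B and NPAS3, and at most 1 UMI of PTPRC, the leukocyte surface phosphatase CD45. The nuclei were thus chosen by their measured UMIs of these genes, and 191 of the 12614 barcodes of the study met the rule. TTN-positive nuclei had at least 1 TTN UMI and numbered 96. TTN-negative nuclei had 0 TTN UMIs and numbered 95. In replicate 1 there were 49 TTN-positive and 42 TTN-negative nuclei, and in replicate 2 there were 47 TTN-positive and 53 TTN-negative nuclei.

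The nuclei came from thymus of female chickens at 5 weeks of age and were sequenced as 2 droplet single-nucleus RNA libraries, which form 1 group of replicates between which no condition differs. The libraries held 4826743 and 6570941 UMIs. The labels do not state that the libraries came from separate birds, so the spread behind the p-values may be technical. They name more than 1 kit version and sequencer, so the libraries may differ in these. The fit allowed for library, so the p-values rest on how group differences varied between these libraries, with a spread pooled over genes. They do not measure the spread between nuclei. No barcode sequence was shared between the epithelial nuclei of the 2 libraries, and 13 were shared among all barcodes. No doublet caller was run, and a limit on T-lineage UMIs served as an alternative.

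Thymic epithelium forms the stroma in which T cells develop, and the transcription factor FOXN1 drives its differentiation. Its cortical cells express LY75 and the Notch ligand DLL4, while its medullary cells display proteins of other tissues to developing T cells, and in mice some medullary cells take on the programme of another cell type, muscle included. Titin spans the muscle sarcomere from the Z-disc to the M-line, where it acts as a molecular spring. LDB3, also called ZASP or Cypher, is a protein of the Z-disc.

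TTN UMIs were common in epithelial nuclei and rare elsewhere. A TTN UMI was present in 53.8% of the epithelial nuclei of replicate 1 (exact Clopper-Pearson 95% interval 43.1 to 64.4) and in 47.0% of those of replicate 2 (36.9 to 57.2), a mean of 50.4% ± 4.84 (SD, n = 2). Among other barcodes with at least 200 genes the share was 0.433% in replicate 1 (22 of 5080, interval 0.272 to 0.655) and 0.311% in replicate 2 (17 of 5474, interval 0.181 to 0.497). The median depth was 2298 and 3324 UMIs in epithelial nuclei and 682 and 849 UMIs in other barcodes. With each barcode thinned to 1000 UMIs, the shares were 44.7% and 38.0% in epithelial nuclei, against 0.930% and 0.325% in other barcodes. The intervals cover counting error only, and the share of TTN-positive nuclei is a description, since TTN defines the groups. Free RNA may have been subtracted from the counts before deposit, so a 0 of TTN or PTPRC can reflect that step.

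TTN lies on chromosome 7 of the GRCg7b assembly, at 14758023 to 15007017, a span of 249 kb. The TTN-positive nuclei held 498 TTN UMIs in replicate 1 and 494 in replicate 2, unevenly spread over nuclei. Their median was 4 and 6 TTN UMIs, the highest nuclei held 74 and 66, and 15 and 9 nuclei held a single TTN UMI. The 5 nuclei with most TTN UMIs held 52.2% of the TTN UMIs of replicate 1 and 43.1% of those of replicate 2. The split at 1 UMI therefore sets nuclei with a single TTN UMI beside nuclei with up to 74, and nuclei on the 2 sides of the limit can differ by 1 UMI.

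**Figure D1:**
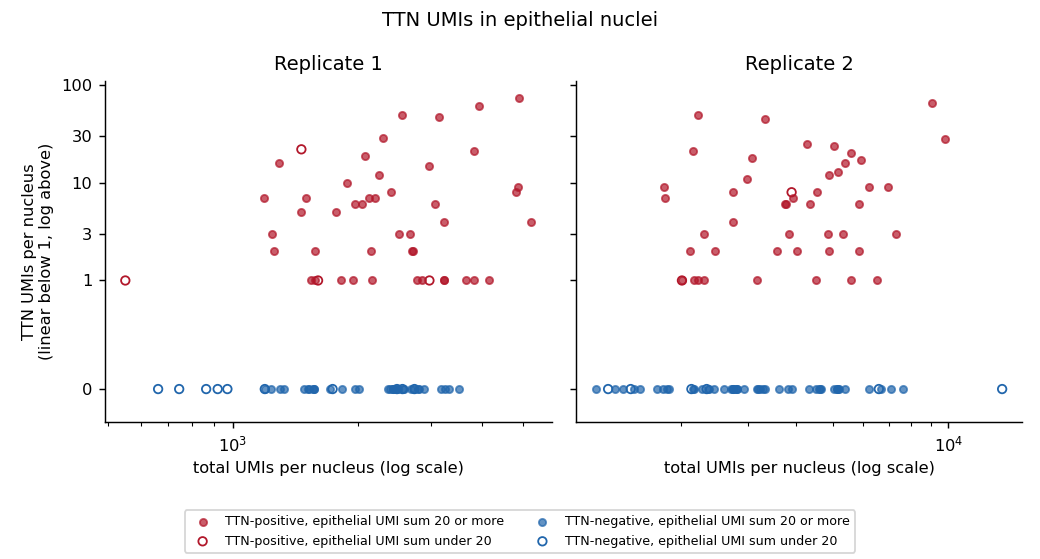
TTN UMIs per nucleus (linear below 1, log above) against total UMIs per nucleus (log scale) in each library. Each point is 1 epithelial nucleus, TTN-positive in red and TTN-negative in blue, and open points had an epithelial UMI sum under 20. The TTN-positive nuclei reach 74 TTN UMIs in replicate 1 and 66 in replicate 2.

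TTN-positive nuclei had the higher median depth in both libraries, and a deeper nucleus is more likely to yield a UMI of any gene. Their median total was 2298 UMIs in replicate 1 and 3933 in replicate 2, against 2194 and 2801 in TTN-negative nuclei. Without the 7 genes of the rule, the median ratio of TTN-positive to TTN-negative nuclei was 1.05 in replicate 1 and 1.41 in replicate 2. For the comparison of genes, each TTN-positive nucleus was therefore paired with a TTN-negative nucleus of the same library with a total within 0.25 on the log2 scale. This gave 38 pairs in replicate 1 and 41 in replicate 2. Pairing left out some of the nuclei with most TTN UMIs, among them those with 74 and 61 in replicate 1 and with 66 in replicate 2. The paired TTN-positive nuclei kept 252 of 498 TTN UMIs in replicate 1 and 366 of 494 in replicate 2, so the paired comparison covers TTN-rich nuclei less. The paired sums held 83986 and 157668 UMIs in TTN-positive nuclei and 82954 and 154757 UMIs in TTN-negative nuclei. The levels below are CPM, a gene's UMIs scaled by the total UMIs of its sum, unless all nuclei are named, and log2 fold changes are TTN-positive over TTN-negative with their standard error. Remarks that libraries did or did not overlap describe 2 values per group. Such a gap can arise without any difference, and its share over all tested genes was not counted.

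None of the tested genes of the epithelial lists passed between the 2 groups. LY75, a cortical endocytic receptor, stood at 10061 and 10459 CPM in TTN-positive nuclei and 10789 and 10074 CPM in TTN-negative nuclei, a log2 fold change of 0.00 ± 0.07 (edgeR adjusted p = 0.992). EYA1, a transcription cofactor of the pharyngeal pouch, stood at 2381 and 2803 CPM in TTN-positive nuclei and 2664 and 2604 CPM in TTN-negative nuclei. TP63, a factor of stratified and thymic epithelium, stood at 1810 and 1148 CPM in TTN-positive nuclei and 1338 and 1460 CPM in TTN-negative nuclei. For LY75, EYA1 and TP63 the libraries of the 2 groups overlapped. They did not for the transcription factor PAX9, at 679 and 615 CPM in TTN-positive nuclei and 567 and 523 CPM in TTN-negative nuclei. Its log2 fold change was 0.27 ± 0.25 (edgeR adjusted p = 0.958). Of 11 tested thymic epithelial transcription factors none passed, with a median log2 fold change of 0.07, and none of 7 cortical genes passed, with a median of -0.09, where the median over all genes was 0.02. None of 12 junction and keratin genes passed (median 0.02) and none of 11 matrix genes (median -0.04). The cortical list had 10 of its 16 genes in the matrix. The medullary list had 9 of its 16 genes there, and none of these had enough UMIs to be tested.

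FOXN1, a gene of the rule, stood at 2072 and 1395 CPM in TTN-positive nuclei and 1881 and 1357 CPM in TTN-negative nuclei. ABCA12, a lipid transporter and also of the rule, stood at 6084 and 6235 CPM in TTN-positive nuclei and 4810 and 4743 CPM in TTN-negative nuclei. These are given without a test, because the rule used them. At the edge of the rule, 3 barcodes of replicate 1 and 4 of replicate 2 had an epithelial sum of 3, none of them with TTN, and 0 and 2 had a sum of 4, also without TTN. An epithelial sum under 20 was found in 4 of 49 and 2 of 47 TTN-positive nuclei and in 10 of 42 and 6 of 53 TTN-negative nuclei, counts that carry no test. All 191 nuclei had 0 PTPRC UMIs, and 12 barcodes that met the epithelial sum were left out for more PTPRC.

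LDB3 did not follow TTN in the paired nuclei. It stood at 381 and 235 CPM in TTN-positive nuclei and 350 and 330 CPM in TTN-negative nuclei, so the libraries of the 2 groups overlapped. Its log2 fold change was -0.19 ± 0.31 (edgeR adjusted p = 0.992), and the sign differed between the libraries, at 0.12 in replicate 1 and -0.48 in replicate 2. A UMI of LDB3 was found in 44.7% and 46.3% of TTN-positive nuclei and in 39.5% and 48.8% of TTN-negative nuclei. In other barcodes LDB3 stood at 2.30 and 2.96 CPM. Over both groups together an LDB3 UMI was found in 44.0% and 47.0% of epithelial nuclei, against 0.118% and 0.219% of other barcodes.

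No tested sarcomere gene passed in the paired comparison. Of 76 genes of the sarcomere and Z-disc list, 62 were in the matrix, 31 of these had at least 1 UMI in epithelial nuclei and 31 were at 0. Summed over all nuclei, the list without TTN stood at 2881 and 2687 CPM in TTN-positive nuclei. In TTN-negative nuclei the sum stood at 2577 and 2172 CPM, without overlap, and it was not tested. PDLIM3 alone supplied 76 of 361 and 121 of 532 of these UMIs in TTN-positive nuclei and 26 of 222 and 46 of 411 in TTN-negative nuclei. Without PDLIM3 the summed levels of the 2 groups overlapped. Only 8 genes of the list besides TTN had enough UMIs for the test. None passed, with a median log2 fold change of 0.22 against 0.02 over all genes. One of the 8, PDLIM3, which encodes the actinin-binding Z-disc protein ALP, had an unadjusted p under 0.05. PDLIM3 stood at 393 and 419 CPM in TTN-positive nuclei and 289 and 233 CPM in TTN-negative nuclei, without overlap, with a log2 fold change of 0.70 ± 0.31 (edgeR adjusted p = 0.616). With all nuclei in place of pairs its log2 fold change was 1.20 ± 0.29 (edgeR adjusted p = 0.00794), and with pairs up to 0.5 apart it was 1.13 (edgeR adjusted p = 0.0329), so PDLIM3 passed in those settings and not in the paired comparison.

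The remaining tested sarcomere genes had adjusted p-values of 0.869 or more in edgeR's test. The thin filament gene NEB had a log2 fold change of -0.10, its relative NEBL 0.18, the actin bundler PALLD 0.32, the Z-disc adaptor SORBS2 0.50 and PDLIM5 -0.47. Genes that define a muscle fibre were at or near 0. Over the 9 such genes in the matrix, the UMIs numbered 3 in replicate 1 and 1 in replicate 2 in all TTN-positive nuclei, and 2 and 0 in all TTN-negative nuclei. The fast myosin light chain MYLPF, the troponin gene TNNT3 and the myogenic factor MYOG were at 0 in both groups. Of the 15 myogenic factors 7 were at 0 and the 2 tested did not pass. None of the 4 tested genes of muscle excitation passed (median 0.29), among them the calcium release channel RYR2, at 1000 and 875 CPM in TTN-positive nuclei and 567 and 827 CPM in TTN-negative nuclei. None of 6 tested genes of the dystrophin complex passed (median 0.08).

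Across the transcriptome few genes separated the groups. Of 2559 genes tested, 11 had an adjusted p under 0.05 in edgeR's two-sided quasi-likelihood test with Benjamini-Hochberg adjustment, 0.43% of those tested. Of these, 10 were higher in TTN-positive nuclei (0.391%), 7 of them with a symbol, and 1 was lower (0.0391%). An unadjusted p under 0.05 was found for 163 of the 2559 genes. That threshold passes some genes even where none differs, so such counts, here and below, are not calls. By DESeq2 no gene passed, and 14 had an unadjusted p under 0.05. The 7 named genes that rose encode an adaptor (DAB1), a splicing regulator (RBFOX1), a receptor subunit (GABBR2), a microtubule-associated protein (NAV3), an endoplasmic reticulum protein (RTN1), an adhesion protein (NRXN3) and a potassium channel (KCNQ5).

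**Figure D2:**
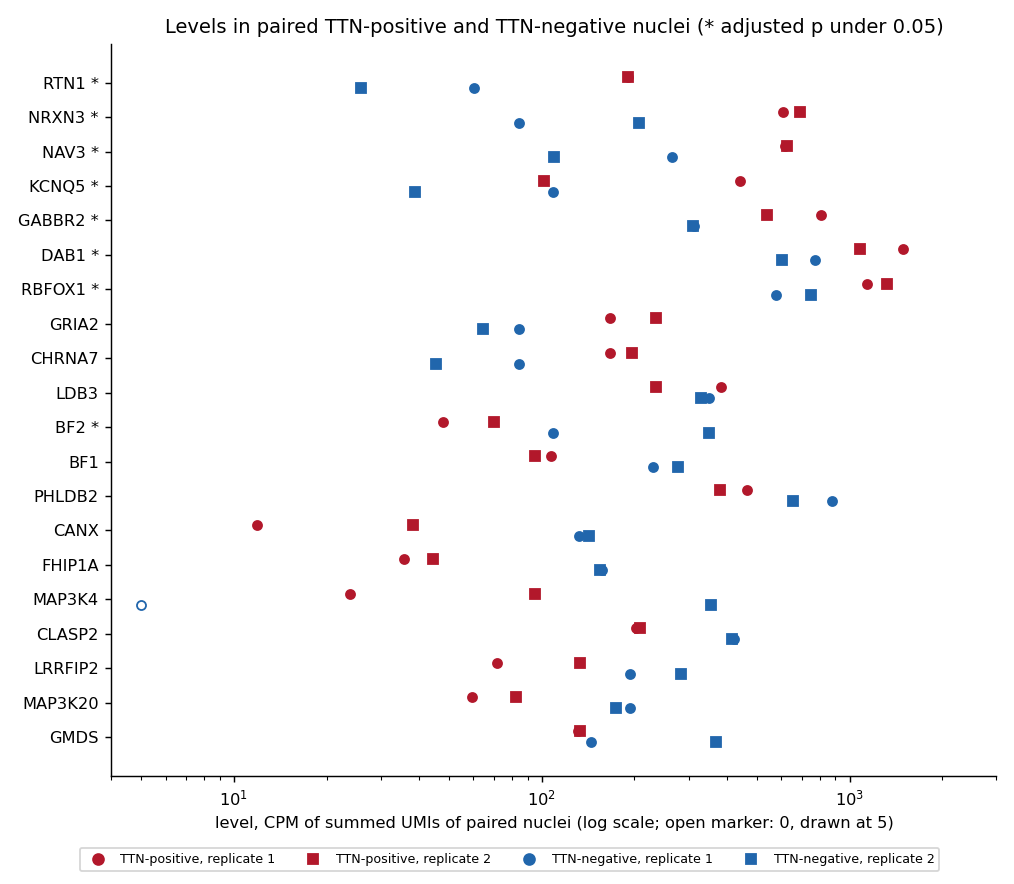
Level (CPM, log scale) of 9 named genes on the higher side, LDB3 and the 10 named genes on the lower side in the paired sums. Red points are TTN-positive and blue points TTN-negative, circles are replicate 1 and squares replicate 2, and asterisks mark genes with an adjusted p under 0.05. The starred genes were picked from these same sums, so a gap between their red and blue points adds no support. For KCNQ5 the red and blue points overlap.

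DAB1 and GABBR2 were spread over many nuclei, and RBFOX1 less evenly. DAB1, the intracellular adaptor of reelin signalling (chromosome 8, 25533715 to 25906038), had 125 and 170 UMIs in TTN-positive nuclei and 64 and 93 in TTN-negative nuclei. At least 1 DAB1 UMI was found in 29 of 38 and 31 of 41 TTN-positive nuclei and in 20 of 38 and 25 of 41 TTN-negative nuclei. Its level was higher in both libraries, at 1488 and 1078 CPM in TTN-positive nuclei and 772 and 601 CPM in TTN-negative nuclei, without overlap. The log2 fold change was 0.92 ± 0.21 (edgeR adjusted p = 0.00906). Other barcodes held DAB1 at 19.8 and 12.3 CPM.

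RBFOX1, an RNA-binding splicing regulator of neurons and muscle (chromosome 14, 10869187 to 11617981), stood at 1143 and 1319 CPM in TTN-positive nuclei and 579 and 750 CPM in TTN-negative nuclei. Its UMIs were found in 18 and 19 TTN-positive nuclei and in 11 and 17 TTN-negative nuclei. The libraries did not overlap and the log2 fold change was 0.91 ± 0.21 (edgeR adjusted p = 0.00906). The nucleus with most RBFOX1 UMIs held 41 of 96 in replicate 1 and 31 of 208 in replicate 2 among TTN-positive nuclei. Other barcodes held RBFOX1 at 2.76 and 3.13 CPM.

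GABBR2, a subunit of the metabotropic GABA-B receptor (chromosome 2, 87528684 to 87992020), stood at 810 and 539 CPM in TTN-positive nuclei and 313 and 310 CPM in TTN-negative nuclei. The libraries did not overlap, and the log2 fold change was 1.07 ± 0.28 (edgeR adjusted p = 0.0350). Its UMIs were found in 24 and 22 TTN-positive nuclei and in 10 and 19 TTN-negative nuclei, so their number differed more in replicate 1 than in replicate 2. GABBR2 passed in 5 of 17 alternative settings, among them the limits of 400 detected genes and of 0 PTPRC UMIs, which left the paired sums unchanged. It did not pass, for example, at an epithelial sum of at least 6 (1.07, edgeR adjusted p = 0.128) or with RLE scaling (1.06, edgeR adjusted p = 0.111).

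NAV3, a microtubule-associated neuron navigator (chromosome 1, 38488926 to 39016857), passed under more settings than any other of these genes. It stood at 619 and 628 CPM in TTN-positive nuclei and 265 and 110 CPM in TTN-negative nuclei, without overlap. NAV3 UMIs were found in 14 and 21 TTN-positive nuclei and in 8 and 8 TTN-negative nuclei. The log2 fold change was 1.91 ± 0.31 (edgeR adjusted p = 1.78e-06), at 1.20 in replicate 1 and 2.48 in replicate 2. Across 17 alternative settings it passed in 13, among them the limits of 400 detected genes and of 0 PTPRC UMIs, which left the paired sums unchanged. NAV3 was the only gene that passed in the paired split at 1 TTN UMI with an epithelial sum of 20 or more (1.86, edgeR adjusted p = 0.0161). After thinning to 1000 UMIs per nucleus it was at 0.89 and did not pass (edgeR adjusted p = 0.499).

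RTN1, a reticulon of the endoplasmic reticulum found in neurons and neuroendocrine cells (chromosome 5, 54164071 to 54280955), was sparse. Its UMIs numbered 16 and 30 in TTN-positive nuclei and 5 and 4 in TTN-negative nuclei, found in 9 and 9 TTN-positive nuclei and in 3 and 2 TTN-negative nuclei. The levels of 190.5 and 190.3 CPM in TTN-positive nuclei and 60.3 and 25.8 CPM in TTN-negative nuclei did not overlap. The log2 fold change was 2.30 ± 0.54 (edgeR adjusted p = 0.00906), at 1.57 in replicate 1 and 2.73 in replicate 2. With all nuclei in place of pairs it was 0.41 (edgeR adjusted p = 0.998), and 1 unpaired TTN-negative nucleus of replicate 2 held 41 of the 46 RTN1 UMIs of its group.

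The calls of NRXN3 and KCNQ5 rested on single nuclei. NRXN3, a presynaptic adhesion protein (chromosome 5, 39029578 to 39970622), had 51 and 109 UMIs in TTN-positive nuclei and 7 and 32 in TTN-negative nuclei, and a log2 fold change of 2.10 ± 0.32 (edgeR adjusted p = 1.24e-07). One TTN-positive nucleus in each library held 34 of the 51 and 71 of the 109. Leaving out the nucleus with most NRXN3 UMIs in each library and group, an alternative chosen after seeing the data, gave 0.94 (edgeR adjusted p = 0.808), and an epithelial sum of at least 20 gave 0.91 (edgeR adjusted p = 0.856). Without replicate 2 the log2 fold change was 2.76, and without replicate 1 it was 1.73.

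These NRXN3-rich nuclei had low epithelial sums. The one of replicate 1 had an epithelial sum of 7 and 1 TTN UMI among 2980 UMIs, with 90 UMIs of CELF4, 54 of HDAC9, 34 of DPP6, 25 of CHGA, the secretory granule protein chromogranin A, and 11 of MYT1L. The one of replicate 2 had an epithelial sum of 19 and 8 TTN UMIs among 3895 UMIs, with 27 UMIs of DSCAM and 10 of GRM8. They met the epithelial rule with sums well under the median of 53 and 85 in TTN-positive nuclei. Whether they were single epithelial nuclei was not tested.

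KCNQ5, a voltage-gated potassium channel (chromosome 3, 81242885 to 81506409), had 37 and 16 UMIs in TTN-positive nuclei and 9 and 6 in TTN-negative nuclei. They lay in 1 and 2 TTN-positive nuclei and in 2 and 1 TTN-negative nuclei. The log2 fold change was 1.78 ± 0.46 (edgeR adjusted p = 0.0324). The nucleus of replicate 1 with all 37 KCNQ5 UMIs also held 5 UMIs of BCL11B, a T-lineage factor, and other barcodes held KCNQ5 at 1743 and 1722 CPM. With at most 2 T-lineage UMIs allowed per nucleus the log2 fold change was 0.70 and KCNQ5 no longer passed.

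**Figure D3:**
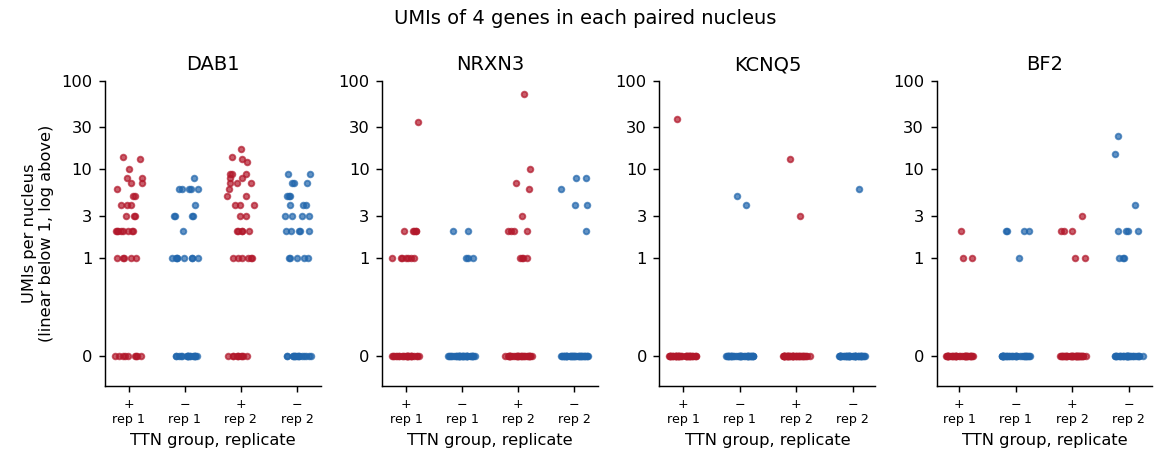
UMIs per nucleus (linear below 1, log above) of DAB1, NRXN3, KCNQ5 and BF2 in every paired nucleus, by replicate, with TTN-positive nuclei (+, red) left of TTN-negative nuclei (−, blue). DAB1 is spread over many nuclei, while single nuclei reach 34 and 71 UMIs for NRXN3, 37 for KCNQ5 and 24 for BF2.

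T-lineage transcripts were present in a minority of nuclei of both groups. Of the 19 T-lineage genes 9 had a UMI in epithelial nuclei and 10 were at 0, among them CD3E, CD8A, RAG1 and DNTT. LEF1 and TCF7 had the most UMIs over both groups together. In TTN-positive nuclei of replicate 1, BCL11B had 19 UMIs and ETS1 15, against 14 of LEF1 and 6 of TCF7. Single nuclei held up to 20 and 34 UMIs of the list among TTN-positive nuclei and up to 16 and 48 among TTN-negative nuclei. The summed list stood at 447 and 682 CPM in all TTN-positive nuclei and 430 and 571 CPM in all TTN-negative nuclei. It was found in 7 and 9 TTN-positive nuclei and in 3 and 6 TTN-negative nuclei. Its part in the comparison beyond the alternative above was not tested. With at most 2 T-lineage UMIs per nucleus, 3 genes passed, NRXN3 and NAV3 among them.

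The receptor genes GRIA2 and CHRNA7, also named by the rule on the higher side, did not pass in the paired comparison. GRIA2, a subunit of AMPA-type glutamate receptors, stood at 167 and 235 CPM in TTN-positive nuclei and 84.4 and 64.6 CPM in TTN-negative nuclei, with a log2 fold change of 1.53 ± 0.46 (edgeR adjusted p = 0.148). CHRNA7, the alpha 7 nicotinic acetylcholine receptor subunit, stood at 167 and 197 CPM in TTN-positive nuclei and 84.4 and 45.2 CPM in TTN-negative nuclei, with 1.63 ± 0.49 (edgeR adjusted p = 0.148). The libraries did not overlap for either gene. Other barcodes held GRIA2 at 1.15 and 2.63 CPM and CHRNA7 at 0.230 and 0 CPM. With all nuclei, GRIA2 had 39 and 70 UMIs in TTN-positive nuclei and 7 and 12 in TTN-negative nuclei, and it then passed at 2.26 ± 0.39 (edgeR adjusted p = 8.12e-06).

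Relatives of these genes, chosen after their values were seen, did not pass. NAV2 was at -0.16, RBFOX2 at -0.09, the AMPA receptor gene GRIA1 at -0.22, the delta receptor gene GRID1 at -0.48 and the neurexin partner NLGN1 at 0.13. RBFOX2, for example, stood at 964 and 1313 CPM in TTN-positive nuclei and 1338 and 1176 CPM in TTN-negative nuclei. Whether NAV3 or RBFOX1 differs from its relative in response was not tested. Of the neuroendocrine list, 3 genes were tested and none passed (median 0.50). The highest was SCG2, which encodes secretogranin II, at 500 and 400 CPM in TTN-positive nuclei and 253 and 233 CPM in TTN-negative nuclei, a log2 fold change of 0.89 ± 0.31 (edgeR adjusted p = 0.302).

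BF2 was the 1 gene that fell. It encodes the major classical class I heavy chain of the chicken major histocompatibility complex (chromosome 16, 2226703 to 2229465). BF2 had 4 and 11 UMIs in TTN-positive nuclei and 9 and 54 in TTN-negative nuclei, or 47.6 and 69.8 CPM in TTN-positive nuclei and 108 and 349 CPM in TTN-negative nuclei, without overlap. The log2 fold change was -1.99 ± 0.46 (edgeR adjusted p = 0.00906), at -1.10 in replicate 1 and -2.27 in replicate 2. Other barcodes held BF2 at 97.5 and 116 CPM, above both TTN-positive levels. Its neighbour BF1, a close copy that can share reads with it, had -1.34 ± 0.40 (edgeR adjusted p = 0.148), so the split of reads between the 2 genes is uncertain. One TTN-negative nucleus of replicate 2 held 24 of the 54 BF2 UMIs, at an epithelial sum of 5, and another held 15, at an epithelial sum of 12. With an epithelial sum of at least 20, BF2 was at -1.01 (edgeR adjusted p = 0.895) and did not pass.

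Of 7 tested antigen presentation genes 1 passed, BF2, which was also the only gene of all tested that passed as lower (0.0391%). Of the 7, 0 had a log2 fold change above 0, with a median of -0.51 against 0.02 over all genes. CD74, the invariant chain of class II molecules, stood at 238 and 393 CPM in TTN-positive nuclei and 241 and 556 CPM in TTN-negative nuclei, and the class II gene BLB2 at 143 and 298 CPM in TTN-positive nuclei and 157 and 478 CPM in TTN-negative nuclei. The libraries overlapped for both. In replicate 1 the paired UMIs in TTN-positive and TTN-negative nuclei were 20 and 20 for CD74 and 12 and 13 for BLB2. In replicate 2, 1 paired TTN-negative nucleus with an epithelial sum of 5 weighed on several of these genes. It supplied 17 of 86 CD74, 22 of 74 BLB2, 24 of 54 BF2 and 26 of 43 BF1 UMIs of its group. With all nuclei, where 1.09% of the tested genes passed, CD74 (-1.11), BLB1 (-1.35), BLB2 (-1.17), B2M (-2.08) and BF1 (-2.22) passed. One unpaired TTN-negative nucleus of replicate 2, with 13805 UMIs and an epithelial sum of 4, then supplied 90 of 182 CD74 UMIs, 91 of 170 of BLB2, 34 of 92 of BF2 and 49 of 98 of BF1. It also held 76 UMIs of CADM1, 66 of CD44, 48 of CALB2, 41 of RTN1, 40 of OTP and 27 of MAP2. CADM1 is a gene of the dendritic list, whose summed level was 343 and 217 CPM in all TTN-positive nuclei and 441 and 793 CPM in all TTN-negative nuclei. Of the 6 dendritic genes in the matrix 4 had a UMI in epithelial nuclei. XCR1 and ZNF366 were at 0, FLT3 had 1 UMI in all, and BATF3 had 5 and 8 UMIs in TTN-positive nuclei and 4 and 5 UMIs in TTN-negative nuclei. The part of such nuclei was not tested further.

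The other 8 genes named on the lower side did not pass. PHLDB2, which anchors microtubules at the cell cortex, stood at 464 and 381 CPM in TTN-positive nuclei and 880 and 653 CPM in TTN-negative nuclei, with a log2 fold change of -0.82 ± 0.26 (edgeR adjusted p = 0.190). CLASP2, a microtubule plus-end protein, stood at 202 and 209 CPM in TTN-positive nuclei and 422 and 414 CPM in TTN-negative nuclei, with -0.99 ± 0.32 (edgeR adjusted p = 0.202). The libraries did not overlap for either gene, and their UMIs were spread over nuclei, PHLDB2 in 23 and 25 TTN-positive nuclei and in 30 and 29 TTN-negative nuclei. CANX, the endoplasmic reticulum chaperone calnexin, was at -2.27 ± 0.71 on 1 and 6 UMIs in TTN-positive nuclei and 11 and 22 in TTN-negative nuclei. FHIP1A (-1.88), LRRFIP2 (-1.17) and MAP3K20 (-1.27) had 3 to 21 UMIs per library in TTN-positive nuclei. For MAP3K4 (-1.56) and GMDS (-1.01), 1 TTN-negative nucleus of replicate 2 held 44 of 55 and 38 of 57 UMIs. For MAP3K4 the sign turned without replicate 2, on 2 UMIs in TTN-positive nuclei and 0 in TTN-negative nuclei of replicate 1. Other barcodes held GMDS at 492 and 426 CPM, CLASP2 at 484 and 430, CANX at 359 and 314, MAP3K4 at 152 and 133 and LRRFIP2 at 140 and 131. They held MAP3K20 at 27.1 and 24.0 CPM, FHIP1A at 18.2 and 13.8 and PHLDB2 at 4.37 and 5.10. The part of RNA from other barcodes was not tested.

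Grouping all nuclei by the number of TTN UMIs gave a finer view than the split at 1. With 0, 1 to 2, 3 to 9 and 10 or more TTN UMIs there were 42, 20, 17 and 12 nuclei in replicate 1 and 53, 15, 18 and 14 in replicate 2, with median depths of 2194, 2437, 2203 and 2431 UMIs and 2801, 3159, 3914 and 4958 UMIs. In that order, DAB1 stood at 766, 1117, 1060 and 2423 CPM in replicate 1 and 576, 544, 1120 and 1469 CPM in replicate 2. CHRNA7 stood at 81.3, 82.8, 158 and 460 CPM in replicate 1 and 47.6, 37.5, 211 and 320 CPM in replicate 2. For both genes the nuclei with 10 or more TTN UMIs were highest in each library. The nuclei with 1 to 2 TTN UMIs were near those with none in both libraries for CHRNA7 and in replicate 2 for DAB1.

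RBFOX1 and GRIA2 were also higher at 10 or more TTN UMIs than at 0 in both libraries, though GRIA2 was highest at 3 to 9 in replicate 1. RBFOX1 stood at 604, 517, 1511 and 2086 CPM in replicate 1 and 676, 862, 1054 and 1323 CPM in replicate 2. GRIA2 stood at 81.3, 124, 474 and 368 CPM in replicate 1 and 63.4, 187, 132 and 727 CPM in replicate 2. CADM1, an adhesion molecule, ran the other way at the ends, at 371, 497, 225 and 92.0 CPM in replicate 1 and 745, 169, 277 and 58.2 CPM in replicate 2. In replicate 2, 1 nucleus with an epithelial sum of 4 held 76 of the 141 CADM1 UMIs at 0 TTN UMIs, and over nuclei with an epithelial sum of at least 20 the level at 0 was 384 CPM. In the paired comparison at 1 TTN UMI, CADM1 had a log2 fold change of -0.35 ± 0.31 (edgeR adjusted p = 0.958). LDB3 stood at 337, 393, 338 and 491 CPM in replicate 1 and 301, 150, 263 and 305 CPM in replicate 2. It was thus also highest at 10 or more TTN UMIs, but in replicate 2 its level there, 305 CPM, was close to the 301 CPM at 0.

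**Figure D4:**
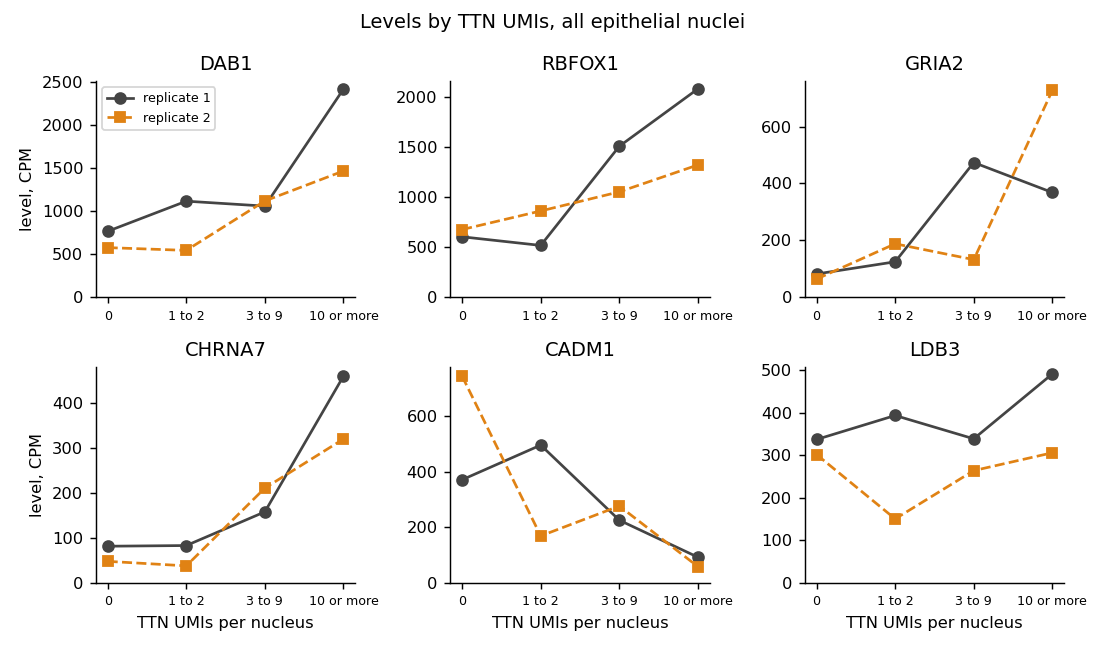
Level (CPM) of 6 genes in epithelial nuclei with 0, 1 to 2, 3 to 9 and 10 or more TTN UMIs, one line per library, over all nuclei. DAB1 reaches 2423 and 1469 CPM at 10 or more TTN UMIs, CADM1 is at 92.0 and 58.2 CPM there, and LDB3 is at 491 and 305 CPM there against 337 and 301 CPM at 0.

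A test of nuclei with 10 or more TTN UMIs against nuclei with none was added after the data were seen. It used all nuclei with an epithelial sum of at least 20, 11 and 14 with high TTN against 32 and 47 without. Of 1576 genes 15 passed (0.952%), 14 higher (0.888%) and 1 lower (0.0635%). GRIA2 rose by 3.23 ± 0.50 on the log2 scale (edgeR adjusted p = 9.68e-08), on 12 and 50 UMIs in nuclei with high TTN and 7 and 7 UMIs in nuclei without TTN. CHRNA7 rose by 2.69 ± 0.56 (edgeR adjusted p = 0.000604), DAB1 by 1.36 ± 0.27 (edgeR adjusted p = 0.000331), RBFOX1 by 1.21 ± 0.28 (edgeR adjusted p = 0.00260) and NAV3 by 1.90 ± 0.42 (edgeR adjusted p = 0.00153). RTN1, the channel-binding protein gene KCNIP4 and DYTN, which encodes the dystrophin relative dystrotelin, passed as well. So did ASPM, a gene of the mitotic spindle, on 6 and 11 UMIs in 1 and 2 nuclei with high TTN and 0 UMIs in nuclei without TTN.

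CADM1 was the gene that fell in that comparison, at a log2 fold change of -2.32 ± 0.58 (edgeR adjusted p = 0.00811), with 3 and 4 UMIs in nuclei with high TTN and 24 and 62 UMIs in nuclei without TTN. NRXN3 was at 0.87 (edgeR adjusted p = 0.779) and KCNQ5 at 2.32 (edgeR adjusted p = 0.211), and neither passed. LDB3 was at 0.06. The groups in this comparison were not paired, and in replicate 2 the nuclei with high TTN were deeper, with a median of 4958 UMIs against 2919. A paired version of the comparison did not require an epithelial sum of at least 20, so it differed in that limit as well. With pairs of like depth, 11 and 13 nuclei on each side and 931 genes tested, 13 passed (1.4%). GRIA2 (4.38), DAB1 (1.23), RBFOX1 (1.74) and NAV3 (3.22) were among the higher ones and CADM1 (-2.58) was the lower one. CHRNA7 did not pass there, at 2.23 (edgeR adjusted p = 0.165).

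The 7 named genes that rose differed in how far they held under other settings. Of the alternatives that gave a value, NAV3 passed in 13 of 17, DAB1 in 10 of 17, RBFOX1 in 9 of 17, NRXN3 in 9 of 16, RTN1 in 7 of 16, GABBR2 in 5 of 17 and KCNQ5 in 4 of 14. Among these, the limits of 400 detected genes and of 0 PTPRC UMIs could not change any value, so passing under them adds no support. No epithelial nucleus had a PTPRC UMI, and the 1 nucleus under 400 genes was not paired. The limit of an epithelial sum of at least 6 changed only the TTN-negative sum of replicate 2, from 154757 to 155009 UMIs. With that small change 5 genes passed in place of 11. After thinning each nucleus to 1000 UMIs none of 1041 genes passed in edgeR's test, 83 had an unadjusted p under 0.05, and the log2 fold change was 0.89 for NAV3, 0.85 for DAB1, 0.80 for GABBR2, 0.41 for RBFOX1 and 1.18 for NRXN3, while RTN1 and KCNQ5 were not tested. The fold change of NAV3, DAB1, RBFOX1, GABBR2, RTN1 and KCNQ5 was positive under every alternative that gave a value, while that of NRXN3 was -0.12 with 10 or more TTN UMIs over all nuclei. With each gene's top nucleus left out no gene passed in edgeR's test, and 123 had an unadjusted p under 0.05. DAB1 (0.89), RBFOX1 (0.81), GABBR2 (1.20), NAV3 (2.00) and RTN1 (2.43) kept a fold change near that of the paired comparison. On the lower side BF2 did too, at -1.90, while NRXN3 fell to 0.94 and KCNQ5 was not tested. Without the library as a replicate block no gene passed either. As shares of the genes each setting tested, calls made up 1.09% with all nuclei unpaired, 0.545% with pairs up to 0.5 apart, 0.612% at 2 or more TTN UMIs, 0.196% at an epithelial sum of at least 6 and 0.0421% at one of at least 20. They made up 0.128% with at most 2 T-lineage UMIs, 0.807% with 10 or more TTN UMIs over all nuclei, 0.0782% with RLE scaling and 0.0777% with no filter on low counts. The design has 2 libraries, for which an exact two-sided permutation test of a single value cannot go below p = 0.5, so the calls rest on the spread that edgeR shares across genes.

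**Figure D5:**
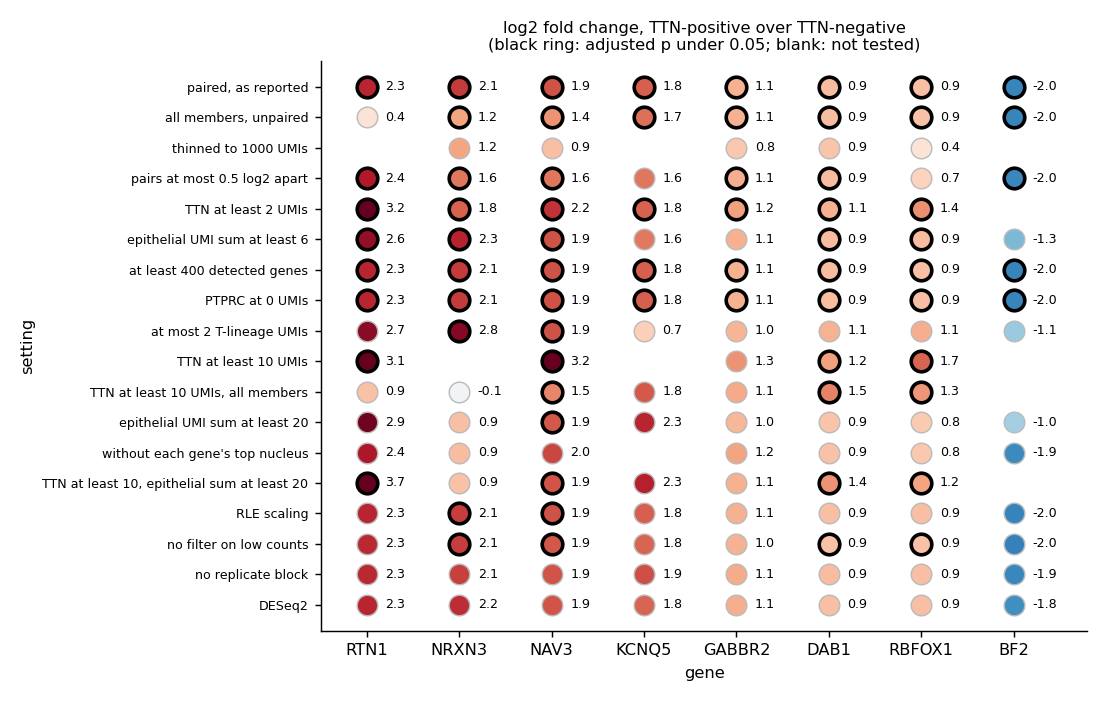
Log2 fold change (number and colour, red higher and blue lower in TTN-positive nuclei) of the 8 named genes that passed, by gene and by setting. Black rings mark an adjusted p under 0.05 and blanks mark genes not tested. NAV3 has a ring in 13 of the 17 alternative settings, and no gene has one without the replicate block or with DESeq2. The settings with at least 400 detected genes and with PTPRC at 0 UMIs used the same paired sums as the reported one.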

How the data were processed

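The matrices deposited for the 2 thymus libraries hold UMI counts (whole numbers, not normalized) of genes in barcodes. Reads were counted with Cell Ranger 7.0.1 on GRCg7b, per the submitters' processing notes. The names of the matrices mention CellBender, which subtracts free RNA, so the counts may be corrected ones and a 0 can reflect that removal. Its version, its settings and the strand setting were not given in the sources used here. RefSeq coordinates on GRCg7b were looked up by symbol, and genes sharing a symbol were summed for display.

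Counts of paired nuclei were summed per library and TTN group (4 sums). They were fitted with library as a blocking term by edgeR 4.0.16 under R 4.3.3, using TMM, filterByExpr, glmQLFit and a two-sided glmQLFTest, with 1 residual degree of freedom and Benjamini-Hochberg adjustment at 0.05. Both groups of a library come from that library, which is where the pairing by replicate comes from. TTN, PTPRC and the 5 epithelial genes were left out of the test. Standard errors come from the test statistic. The step was tested on simulated data. These drew each summed count as a whole, without nuclei, so they cannot show how often a single nucleus with many UMIs leads to a call. Named genes were LDB3, up to 10 per direction that passed, filled to 10 by smallest p, and the tested sarcomere genes; genes named otherwise were chosen after their values were seen. Members and all 26 lists were chosen with earlier results of these data known. Lists were described by counts and medians, without a set test. Genes without a symbol were not named, and 2 genes that the rule named are not reported here. Alternatives were unpaired nuclei, thinning, other limits, RLE scaling, no filter, no block, DESeq2 1.42.0 and leaving out a library. Python 3.11.15, numpy 2.4.6, scipy 1.17.1, pandas 2.3.3 and matplotlib 3.10.9 were used. Per-sample columns not used numbered 0.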

Additional observations from a re-analysis of the deposited data

Results flagged for a closer look

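TTN was also counted in barcodes outside the epithelial rule, and 3 of these stood out with 10 or more TTN UMIs. In replicate 1, 1 barcode held 29 TTN UMIs with an epithelial sum of 0 among 4019 UMIs. It also held 47 UMIs of LOXHD1, 35 of NRXN3, 20 of EYA1, 19 of CACNA2D3, 16 of RBM24, 15 of PENK and 7 of RIMS2. It had 4 UMIs over the genes that define a muscle fibre and 0 of LDB3. Of its 22 UMIs over the T-lineage list, 19 were of BCL11B. The cell type of this barcode was not tested. In replicate 2, 1 barcode held 25 TTN UMIs with an epithelial sum of 60, 6 PTPRC UMIs and 117 T-lineage UMIs, and another held 18 TTN UMIs with an epithelial sum of 66, 5 PTPRC UMIs and 8 T-lineage UMIs. The barcodes of replicate 2 met the epithelial sum and were left out for PTPRC. Most of the other barcodes with TTN held a single UMI, 17 of 22 in replicate 1 and 9 of 17 in replicate 2. Barcodes under 200 genes, 1393 and 476 of them, held no TTN UMI.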

How the results depend on the processing

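The paired comparison called 11 genes. Other settings called 35 with all nuclei unpaired, 0 after thinning (83 at an unadjusted p under 0.05), 5 at an epithelial sum of at least 6, 3 at no more than 2 T-lineage UMIs, 2 with RLE scaling, 0 without the replicate block (102 at an unadjusted p under 0.05) and 0 with DESeq2 (14 at an unadjusted p under 0.05). Alternatives chosen after seeing the data called 1 at an epithelial sum of at least 20 and 0 without each gene's top nucleus. Counts without 1 library could not be had, for want of residual degrees of freedom. LDB3 was at 0.36 with 10 or more TTN UMIs (paired), 0.24 over all nuclei and 0.055 with an epithelial sum of at least 20 as well, and between -0.48 and 0.12 when a library was left out. The sarcomere median of 0.22 was 0.37 unpaired, -0.035 thinned, 0.36 at no more than 2 T-lineage UMIs, -0.069 with no filter and 0.28 with DESeq2. It was 0.36, 0.17 and -0.012 in the 3 settings with 10 or more TTN UMIs in the order given for LDB3, 0.11 at an epithelial sum of at least 20, 0.30 without each top nucleus, and 0.12 to 0.18 when a library was left out. The share of TTN-positive nuclei was 37.7% at 2 or more TTN UMIs, 41.4% thinned, and 47.0% to 53.8% when a library was left out. The depth ratio was 1.05 to 1.41 when a library was left out. Signs turned for NRXN3 (-0.12 with 10 or more TTN UMIs, all nuclei), MAP3K4 (0.26 with DESeq2, -1.87 to 2.30 when a library was left out), NEB (0.36 at no more than 2 T-lineage UMIs, 0.060 without each top nucleus), NEBL (-0.27 to 1.08 when a library was left out) and PALLD (-0.035 thinned, -0.15 and -0.082 with 10 or more TTN UMIs, paired and with an epithelial sum of at least 20). The cause was not tested. Of the other values of named genes 286 kept their direction and side of the threshold, 64 lost and 16 gained a call. Depth limits all of these: most genes had few UMIs, and a gene at 0 may be undetected.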

Other observations

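The named genes that rose and passed are long. Their RefSeq spans had a median of 463 kb over 7 genes, against 54.8 kb over the 2202 of 2559 tested genes with a length, and the span of TTN is 249 kb. The 9 genes reported on the higher side, passing or not, had a median of 372 kb, CHRNA7 being the shortest at 42.3 kb. The 10 genes named on the lower side, of which only BF2 passed, had a median of 86.6 kb. The part of gene length in the comparison was not tested.

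Some sparse genes had too few UMIs for the test. MYH15, a myosin heavy chain gene, had 7 and 20 UMIs in all TTN-positive nuclei and 0 and 7 in all TTN-negative nuclei. CLDN3, a claudin of the medullary list, had 3 and 22 UMIs in TTN-positive nuclei and 0 and 10 in TTN-negative nuclei. The sums behind these counts were deeper in TTN-positive nuclei, at 125290 and 198013 UMIs, than in TTN-negative nuclei, at 86141 and 189228 UMIs. HSP90AA1, a chaperone gene that was tested and did not pass, stood at 405 and 285 CPM in paired TTN-positive nuclei and 555 and 562 CPM in paired TTN-negative nuclei, with a log2 fold change of -0.72 ± 0.28 (edgeR adjusted p = 0.481). The stress list as a whole had a median of -0.09 over 5 tested genes, and none passed.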
